A study of Mus musculus with 4 samples.

Results

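Lipid droplets are the organelles in which cells store triglyceride. The 10 genes described here encode proteins that coat the droplet or control the release of fatty acid from it: the perilipins Plin1, Plin2, Plin3, Plin4 and Plin5, the CIDE proteins Cidea, Cideb and Cidec, the triglyceride lipase gene Pnpla2 and the gene of its inhibitor, G0s2. They were chosen by name as a family, with earlier results of these data known, and all 10 stood in the deposited table of 22103 entries. Of these, 8 passed a filter at a mean of 0.1 FPKM and were tested among 12346 genes, while Plin1 and Cidea lay below it. FPKM divides the fragments of a gene by the length of its transcript and by the total of the library, so levels of different genes can be set side by side.

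RNA was sequenced from whole livers of 2 WT mice and 2 Brg1LKO mice, called KO in the labels and below. In the KO mice a floxed Smarca4, the gene of the chromatin remodelling ATPase Brg1, was crossed to Alb-Cre. The methods describe the knockout as conditional in hepatocytes, and Smarca4 in the other cells of the liver was not measured separately here. According to the methods the mice were 8-week-old males, and all were put through the NIAAA model, in which an ethanol liquid diet of 2 weeks is followed by a single gavage of ethanol. The labels give 15 days of alcohol for every mouse, and no liver without alcohol was analysed here. Smarca4 itself had 1.78 and 1.95 FPKM in the WT livers and 0.608 and 0.579 FPKM in the KO livers, a log2 difference of -1.50 with an unadjusted p of 0.000548 in limma, and both KO livers lay below both WT livers. Depth read back from the steps of the low values was between 72599105 and 80935546 reads per liver. The summed level of 10 hepatocyte markers ran from 22124 to 28325 FPKM, and no marker of that list was at 0.

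As background, Plin2 is the constitutive coat protein of hepatocyte droplets, Plin5 ties droplets to mitochondria and restrains lipolysis in oxidative tissues, Plin3 moves from the cytosol to nascent droplets, Plin4 coats droplets mainly in muscle and fat, and Plin1 belongs to adipocytes. Cidec and Cidea sit at the contact between droplets and let lipid pass from the smaller into the larger, whereas Cideb is the family member of the normal hepatocyte and takes part in the lipidation of very low density lipoprotein. Pnpla2 encodes ATGL, the lipase that starts triglyceride breakdown, G0s2 encodes a protein that inhibits ATGL, and Abhd5 encodes its coactivator CGI-58. Fatty liver is known for raised Plin2 and Cidec.

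For each of the genes tested except Plin2 and G0s2, the log2 gap between the KO livers was wider than the log2 difference between the genotypes. For 5 of the 8 genes tested (Plin3, Plin5, Cideb, Cidec and Pnpla2), 1 KO liver lay above both WT livers and the other lay below both, an arrangement found in 28.4% of all genes tested. The widest gaps were those of Cidec and Plin5, which were high in KO liver 1 and low in KO liver 2. Plin2 and G0s2 were the only genes of the 8 with both KO livers above both WT livers, an arrangement of 10.7% of all genes tested, and none of the 8 had both KO livers below, which 10% of all genes had. The study called genes at a change over 2-fold together with a p under 0.05 from DESeq on read counts. These cut-offs are called the threshold of the study here. They were put on a limma fit of FPKM with unadjusted p, so the calls are not the study's own. In that fit the variance of a gene is drawn towards that of genes at a similar level. By them, 0 of the 8 differed between the genotypes, against 0.98% of all genes. With Benjamini-Hochberg adjustment in limma the adjusted p was 0.99985 for each of the 8, and 0 genes of the whole table (0%) had an adjusted p under 0.05, while 247 had an unadjusted p under 0.05 with limma on FPKM and 232 with voom on estimated reads.

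The stretches upstream of 4 genes are shown because these carry the patterns described below: Cidec and Plin5 with the widest gaps between the KO livers, and Plin2 and G0s2 with both KO livers above both WT livers. They come from the RefSeq promoter table on build GRCm38.p6, in which 9 of the 10 genes had an entry and Cidea had none. They are read 5′ to 3′ on the strand of the gene, and end at the base before the annotated start of the gene. Capitals mark AGGTCA or its reverse complement, a half-site of nuclear receptors such as PPARα.
Cidec, chr6:113435761-113436010, minus strand: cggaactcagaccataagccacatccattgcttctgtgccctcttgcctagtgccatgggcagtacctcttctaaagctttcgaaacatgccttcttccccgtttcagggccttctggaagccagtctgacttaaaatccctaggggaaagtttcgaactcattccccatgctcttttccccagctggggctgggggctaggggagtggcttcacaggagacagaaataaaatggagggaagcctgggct
Plin5, chr17:56117597-56117798, minus strand: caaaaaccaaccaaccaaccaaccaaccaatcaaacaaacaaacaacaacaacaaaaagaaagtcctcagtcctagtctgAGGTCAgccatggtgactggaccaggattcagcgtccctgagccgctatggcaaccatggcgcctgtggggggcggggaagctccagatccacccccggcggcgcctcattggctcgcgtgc
Plin2, chr4:86670061-86670309, minus strand: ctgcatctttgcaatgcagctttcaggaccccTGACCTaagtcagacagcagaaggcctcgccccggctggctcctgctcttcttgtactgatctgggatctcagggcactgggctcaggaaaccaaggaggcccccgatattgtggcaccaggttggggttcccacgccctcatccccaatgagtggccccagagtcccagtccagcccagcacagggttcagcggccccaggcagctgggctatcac
G0s2, chr1:193273218-193273438, minus strand: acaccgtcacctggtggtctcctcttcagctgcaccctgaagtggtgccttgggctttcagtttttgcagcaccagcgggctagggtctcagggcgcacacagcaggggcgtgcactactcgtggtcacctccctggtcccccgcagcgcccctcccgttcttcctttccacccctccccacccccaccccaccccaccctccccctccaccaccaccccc
The half-site stands in Plin5 and Plin2, where its leading base lies 122 and 217 bases before the start of the gene, and it has no match in the windows of Cidec and G0s2. Searched on both strands over 250 bases before a start, AGGTCA was found in 14.0% of 32851 RefSeq windows and in those of 2 of the droplet genes. CCAAT was found in 33.8% of all windows and in those of Plin2, Plin3, Plin4 and Plin5. A direct repeat of AGGNCA with 1 base between (0.338% of all windows) and CACGTG (6.02%) had no match in the windows of the droplet genes that were searched. A match is a match of letters and no binding was measured here. The GC content of the window was 52.8% for Cidec, 58.0% for Plin5, 61.6% for Plin2 and 67.2% for G0s2, against a median of 52.4% over all windows. Cidec has a pair of start sites 996 bases apart, and Plin5 a pair 250 bases apart. The window of the upstream one is shown for each, for Plin5 without its last 48 bases. The single FPKM value per gene does not separate the start sites.

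Among the perilipins, Plin2 was the most abundant transcript, at chr4:86648386-86670060 on the minus strand. Its level was 168 and 220 FPKM in the WT livers (194 ± 37.0, SD, n = 2) and 244 and 241 FPKM in the KO livers (243 ± 2.50, SD, n = 2). Both KO livers thus lay above both WT livers. In FPKM as deposited the KO livers almost coincided, and the WT livers were further apart. The size factors of the median-ratio rescaling described below were 0.911 and 1.13 for the WT livers and 0.885 and 1.11 for the KO livers. Both gaps therefore depend on the scaling between libraries. The KO mean was 1.25 times the WT mean, and the log2 difference of 0.33 (SE 0.318, 95% interval -0.35 to 1.02) had an unadjusted p of 0.312 in limma. That interval holds both 0 and a 2-fold higher level. Since RNA came from whole liver, fewer cells of a type and less RNA per cell cannot be told apart here or in any result below.

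Plin5 stands at chr17:56111601-56117596 on the minus strand, next to Plin4, whose gene ends 1797 bases from it, with Plin3 a further 159879 bases away beyond 11 other genes. Plin5 had 31.8 and 38.6 FPKM in the WT livers and 71.6 and 14.6 FPKM in the KO livers, so that KO liver 1 was above and KO liver 2 below the narrow range of the WT livers. The KO livers differed 4.90-fold, a gap exceeded in 0.616% of all genes tested, and the WT livers 1.21-fold. Between the genotypes the log2 difference was -0.11 (SE 0.543, 95% interval -1.28 to 1.05), with an unadjusted p of 0.838 in limma. This mean described neither KO liver, since it was -1.26 without KO liver 1 and 1.03 without KO liver 2, both past the threshold of the study, and 0.03 without WT liver 2.

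Plin3 (chr17:56277476-56292873, minus strand) had 13.7 and 15.7 FPKM in the WT livers and 17.6 and 12.9 FPKM in the KO livers. Its KO livers also lay either side of the WT livers, but within 1.37-fold of each other. Plin4 (chr17:56100591-56109803, minus strand) was lower, with 2.49 and 4.02 FPKM in the WT livers and 3.74 and 1.89 FPKM in the KO livers. The groups overlapped, since only KO liver 2 lay outside the range of the WT livers. The log2 differences were 0.04 for Plin3 (SE 0.338, 95% interval -0.68 to 0.77) and -0.24 for Plin4 (SE 0.398, 95% interval -1.09 to 0.62), and neither passed the test (unadjusted p of 0.902 and 0.558 in limma). Their signs turned when single livers were left out, to -0.06 and -0.18 for Plin3 without WT liver 1 or KO liver 1, and to 0.10 and 0.23 for Plin4 without WT liver 2 or KO liver 2. Plin4 shares its locus with Hdgfl2 on the other strand, and whether reads were assigned by strand is not given in the sources used here.

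The neighbours Plin4 and Plin5 and the more distant Plin3 each had KO liver 1 above KO liver 2. The fold between these livers was 1.98 for Plin4, 4.90 for Plin5 and 1.37 for Plin3, so genes of this stretch of chromosome 17 differed in the size of the gap.

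Plin1, the coat protein of the adipocyte droplet, was near the limit of detection at chr7:79720218-79732903. Its FPKM of 0.0193 and 0.0131 in the WT livers and of 0.0401 and 0 in the KO livers corresponded to 3, 2, 6 and 0 estimated reads. A count of 0 in KO liver 2 allows up to 0.0216 FPKM at 3 reads, and these limits cover counting error only. Levels this low do not separate the livers.

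**Figure D1:**
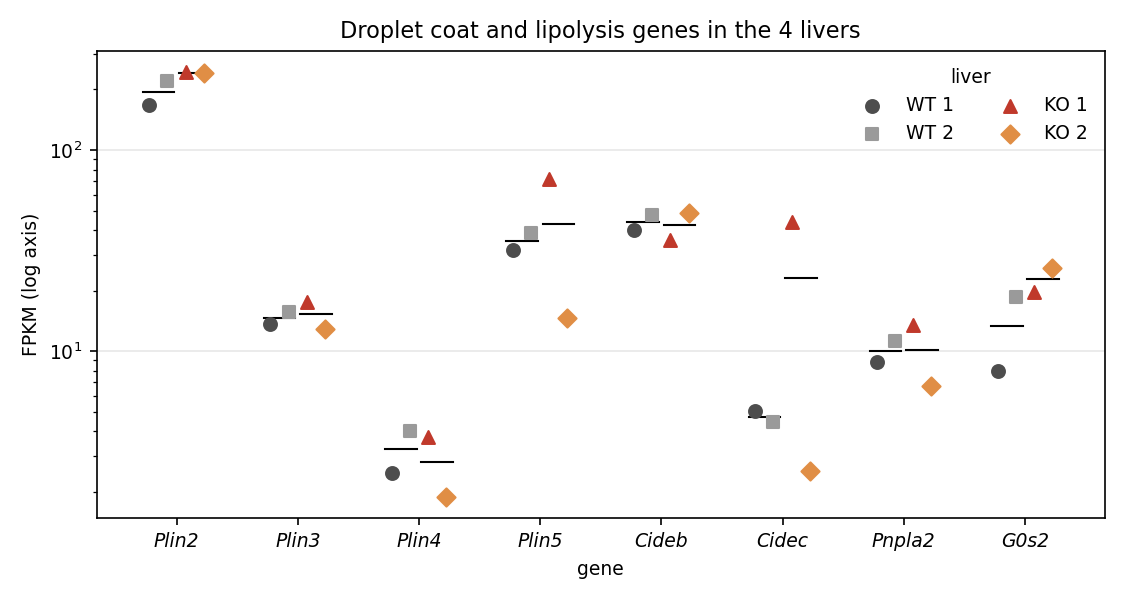
FPKM (log axis) of the 8 genes tested in each of the 4 livers, with the group mean as a black line. KO liver 1 and KO liver 2 lie either side of the WT livers for Plin3, Plin5, Cideb, Cidec and Pnpla2, with Cidec at 43.8 and 2.55 FPKM, while both KO livers lie above for Plin2 and G0s2.

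The makeup of the perilipin transcripts was much alike in the WT livers and unlike in the KO livers. Plin2 made up 77.8% and 79.1% of the summed perilipin FPKM in the WT livers, 72.4% in KO liver 1 and 89.1% in KO liver 2. The share of Plin5 was 14.7% and 13.9% in the WT livers, 21.2% in KO liver 1 and 5.41% in KO liver 2. The sum itself was 216 and 279 FPKM in the WT livers and 337 and 270 FPKM in the KO livers. The ratio of Plin2 to Plin5 was therefore 5.29 and 5.71 in the WT livers but 3.41 and 16.5 in the KO livers. Plin3 had a smaller share in both KO livers (5.23% and 4.77%) than in the WT livers (6.32% and 5.64%), and so had Plin4 (1.11% and 0.701% against 1.15% and 1.44%). For these 2 shares the two-sided exact permutation test gave p = 0.333, which is the smallest value that 2 livers against 2 can give, and it gave p = 1 for the shares of Plin2 and Plin5.

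Cidec, which feeds the growth of large droplets, showed the widest spread of the 10 genes. It stands at chr6:113424634-113435760 on the minus strand. The WT livers had 5.01 and 4.45 FPKM, KO liver 1 had 43.8 FPKM and KO liver 2 had 2.55 FPKM, which correspond to an estimated 698, 611, 5892 and 318 reads. The WT livers thus agreed within 1.13-fold, while the KO livers were 17.2-fold apart. Of the 12346 genes tested, Cidec had the gap of rank 6 by absolute log2 difference between the KO livers, and 12% of all genes had KO livers over 2-fold apart on the log2(FPKM + 0.1) scale, against 3.59% with WT livers over 2-fold apart. The mean log2 difference between the genotypes was 1.16 (SE 0.839, 95% interval -0.64 to 2.96) with an unadjusted p of 0.188 in limma. It rested on KO liver 1. Without that liver the difference was -0.87, with an unadjusted p of 0.0374, and without KO liver 2 it was 3.19, past the threshold of the study, where a lone KO liver is taken to vary like the WT livers.

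Cideb was abundant and varied little. It stands at chr14:55754050-55758458 on the minus strand, where Nop9 overlaps it on the other strand. Its level was 40.0 and 47.3 FPKM in the WT livers and 35.7 and 48.8 FPKM in the KO livers. It was the only gene of the 5 with split KO livers in which KO liver 2 was the higher. The log2 difference was -0.06 (SE 0.334, 95% interval -0.78 to 0.66), with an unadjusted p of 0.863 in limma, and it was 0.06 without WT liver 2 and 0.17 without KO liver 1. Cidea, a droplet protein of brown fat that is also known from fatty liver, had no read in the WT livers and KO liver 1 and 1 estimated read in KO liver 2. A count of 0 allows up to 0.0332, 0.0337 and 0.0344 FPKM in those 3 livers, so a low level of Cidea was not detectable at this depth.

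The balance between the CIDE genes differed accordingly. The ratio of Cidec to Cideb was 0.125 and 0.0940 in the WT livers, 1.23 in KO liver 1 and 0.0522 in KO liver 2. In KO liver 1 Cidec thus reached the level of Cideb, and in the other 3 livers it stayed well below it. Between the genotypes the log2 ratios gave p = 1 in the two-sided exact permutation test.

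Pnpla2, at chr7:141455198-141460743 on the plus strand, had 8.81 and 11.2 FPKM in the WT livers and 13.5 and 6.72 FPKM in the KO livers. The lipase thus had the same order of the KO livers as Cidec and Plin5, with a 2.01-fold gap in FPKM, just under 2-fold on the log2 scale (0.99). The log2 difference between the genotypes was -0.06 (SE 0.383, 95% interval -0.88 to 0.76, unadjusted p of 0.876 in limma), and it was 0.11 without WT liver 2 and 0.44 without KO liver 2.

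G0s2, the gene of the ATGL inhibitor, was the single gene of the 8 with an unadjusted p under 0.05 in limma. Of all 12346 genes tested, 247 had such a p in either direction, and 126 (1.02%) had it with a higher level in the KO livers. G0s2 had 8.01 and 18.6 FPKM in the WT livers (13.3 ± 7.51, SD, n = 2) and 19.8 and 25.8 FPKM in the KO livers (22.8 ± 4.26, SD, n = 2). Both KO livers were above both WT livers. In FPKM as deposited KO liver 1 exceeded WT liver 2 only narrowly, and WT liver 1 lay well below the other 3. The narrow margin depends on the scaling, with median-ratio size factors of 0.885 for KO liver 1 and 1.13 for WT liver 2. The WT livers were 2.33-fold apart, the widest WT gap of the 8 genes. The KO mean was 1.71 times the WT mean, with a log2 difference of 0.88 (SE 0.404, 95% interval 0.01 to 1.75) and an unadjusted p of 0.0471 in limma, short of the 2-fold change of the threshold. The difference depended on WT liver 1, without which it was 0.28 with an unadjusted p of 0.521, and without KO liver 2 it was 0.69 with 0.139. Without WT liver 2 or KO liver 1 it was 1.49 and 1.07, and past the threshold. G0s2 (chr1:193272161-193273217, minus strand) lies within Lamb3 on the other strand.

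**Figure D2:**
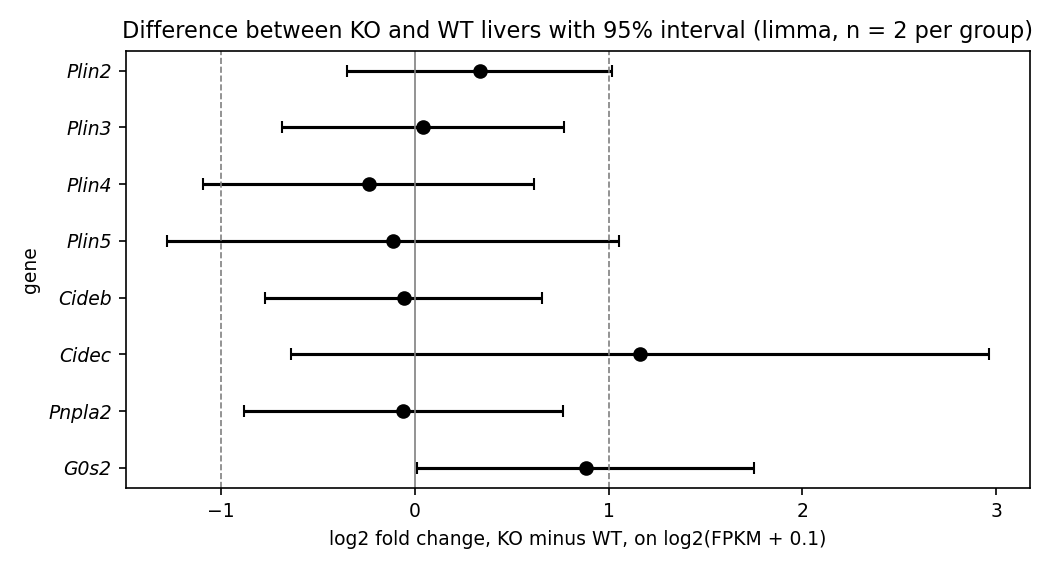
Log2 fold change between KO and WT livers on log2(FPKM + 0.1) for the 8 genes tested, with points for the estimate and bars for the 95% interval from limma; dashed lines mark a 2-fold change. The interval of G0s2 (0.01 to 1.75) is the only interval that leaves out 0, and that of Cidec is the widest (-0.64 to 2.96). The bars use a variance that limma draws towards that of other genes, so they do not show the spread of each gene alone.

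Inhibitor, coactivator and lipase did not keep a fixed ratio. The ratio of G0s2 to Pnpla2 was 0.909 and 1.66 in the WT livers, 1.47 in KO liver 1 and 3.84 in KO liver 2. It was highest in KO liver 2, in which Pnpla2 was lowest and G0s2 highest. The log2 ratio was 0.95 higher in the KO livers on average, and the groups overlapped, since KO liver 1 lay between the WT livers. The two-sided exact permutation test gave p = 0.667, in a design that cannot go below 0.333. Abhd5, with 2.05 and 2.34 FPKM in the WT livers and 1.73 and 2.26 FPKM in the KO livers, gave a ratio to Pnpla2 of 0.233 and 0.209 in the WT livers, 0.129 in KO liver 1 and 0.336 in KO liver 2. Here too the KO livers lay either side of the WT livers, and the two-sided exact permutation test gave p = 1.

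**Figure D3:**
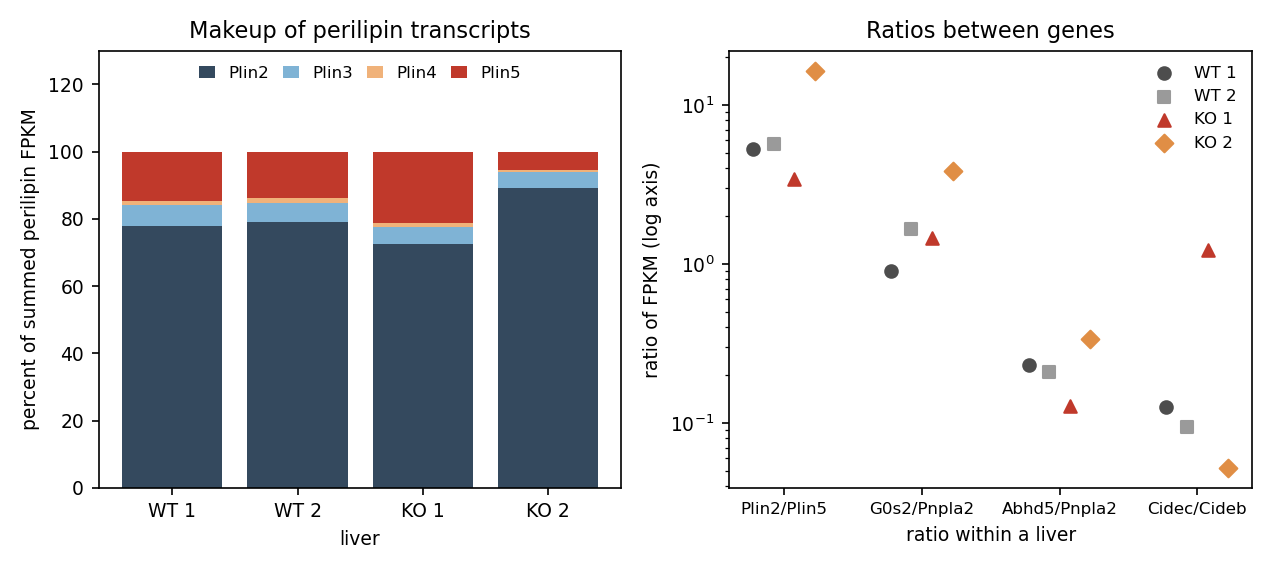
Left, percent of the summed perilipin FPKM in Plin2, Plin3, Plin4 and Plin5 for each liver; right, ratios of FPKM within each liver on a log axis. The share of Plin5 is 21.2% in KO liver 1 and 5.41% in KO liver 2, and the ratio of Cidec to Cideb is 1.23 and 0.0522 in these livers.

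Ordered by the WT mean, the levels ran Plin2, Cideb, Plin5, Plin3, G0s2, Pnpla2, Cidec, Plin4, Plin1 and Cidea. The WT livers of neighbours in this order overlapped for Plin3 and G0s2 and for G0s2 and Pnpla2, so their order is not settled. Over all 4 livers, the range of Plin2 lay above that of every other gene, and the ranges of the neighbours from Cideb down to Plin4 overlapped. Within each liver Plin4 was the lowest of the 8 genes tested. Cidec was the 7th in both WT livers and in KO liver 2 but the 3rd in KO liver 1, and Plin5 was the 2nd in KO liver 1 and the 4th in KO liver 2.

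In 4 of the 5 genes with split KO livers, all but Cideb, KO liver 1 lay above and KO liver 2 below the WT livers, an arrangement of 4.34% of all genes tested (536 genes), whereas 2965 genes had the opposite arrangement. Median-ratio rescaling, with size factors of 0.911 and 1.13 for the WT livers, 0.885 for KO liver 1 and 1.11 for KO liver 2, brought the number of all genes with this arrangement to 1690 (13.7%). After rescaling, 5 of the 8 genes had it, Plin4 joining Plin3, Plin5, Cidec and Pnpla2. Plin2 and G0s2 still had both KO livers above, as had 14.8% of all genes. The folds between livers given for single genes, and the shares of genes over 2-fold apart, are without this rescaling. It widens the gap between the KO livers where KO liver 1 is the higher. Without rescaling, the median absolute log2 gap between the KO livers was 0.70 for the 8 genes and 0.40 for all genes tested. That between the WT livers was 0.31 for either. These medians include the offset between libraries that the size factors describe, so they do not measure the spread between animals alone. The median log2 difference between the genotypes was -0.01 for the 8 genes and -0.02 for all genes.

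By the rule fixed for named genes, the 5 genes whose centred log2 profile over the 4 livers lay nearest to that of Cidec were Thrsp, Hbb-bt, Hbb-bs, Gpcpd1 and Hba-a1, at Euclidean distances of 1.01 to 1.23. Thrsp, a lipogenic gene of the liver, had 11.4 and 20.4 FPKM in the WT livers, 89.2 FPKM in KO liver 1 and 10.6 FPKM in KO liver 2. The globin gene Hbb-bs had 7.27 and 13.8 FPKM in the WT livers, 73.5 FPKM in KO liver 1 and 9.86 FPKM in KO liver 2. Globin transcripts, which come from red blood cells, had their highest level in the same liver as Cidec. The choice by nearness to Cidec favours such a peak, so it is not a separate observation. The part of the globin transcripts in the result was not tested. The gene nearest to Plin5, chosen after its values were seen, was Igfbp1, an insulin-repressed gene of hepatocytes, with 130 and 138 FPKM in the WT livers, 268 FPKM in KO liver 1 and 60.2 FPKM in KO liver 2 (distance 0.17). These are descriptions over 4 livers.

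Beyond the 10 genes, 65 genes of droplet biology in 4 lists were examined, of which 59 were tested. None passed the threshold of the study or had an unadjusted p under 0.05 in limma. By log2 difference 24 were higher and 35 lower in the KO livers, where 5696 of all 12346 genes tested were higher and 6650 lower. The median was -0.06 against -0.02 for all genes. Both KO livers lay above both WT livers for 5 of the 59 and below for 2, where 10.7% and 10% of all genes did so. They lay either side for 15, of which 5 had KO liver 1 above, where 28.4% of all genes were split and 4.34% were split with KO liver 1 above.

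Of the cofactors and other lipases, 13 of 14 were tested, with 4 higher, 9 lower and a median log2 difference of -0.12. Hilpda, another inhibitor of ATGL, had the highest value of the list, 0.56, with 1.43 and 1.16 FPKM in the WT livers and 3.31 and 1.14 FPKM in the KO livers. As with Cidec, this rested on KO liver 1, without which it was -0.17, and it was 1.29 and past the threshold without KO liver 2. Ces1d, a carboxylesterase that hydrolyses triglyceride for lipoprotein secretion, had the lowest value, -0.88, with 84.2 and 201 FPKM in the WT livers and 104 and 48.1 FPKM in the KO livers. The groups overlapped, and the value was -0.25 without WT liver 2 and -0.32 without KO liver 2, but -1.51 without WT liver 1 and -1.43 without KO liver 1, both past the threshold.

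Of the genes for droplet formation and droplet-bound enzymes, 21 of 22 were tested, with 10 higher, 11 lower and a median of -0.03. Hsd17b7, an enzyme of sterol synthesis found on droplets, was the highest at 0.65, with 3.56 and 3.89 FPKM in the WT livers and 6.68 and 5.18 FPKM in the KO livers. Tmem159, which encodes the seipin partner LDAF1, was the lowest at -0.74, with 0.423 and 0.514 FPKM in the WT livers and 0.263 and 0.217 FPKM in the KO livers. For both genes the groups did not overlap, and the unadjusted p was 0.0764 and 0.0551 in limma.

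Of the genes of triglyceride synthesis, 12 of 15 were tested, with 6 higher, 6 lower and a median of -0.02. Lpin3 was the highest at 0.51 and Agpat2, an acyltransferase of phosphatidic acid synthesis, the lowest at -0.33. Lpin1, a phosphatidate phosphatase and transcriptional coactivator, was singled out after its values were seen, because its gap between the KO livers had rank 7 among all genes, next to Cidec. It had 20.98 and 21.6 FPKM in the WT livers, 67.3 FPKM in KO liver 1 and 4.81 FPKM in KO liver 2.

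Of the regulators of droplet genes, 13 of 14 were tested, with 4 higher, 9 lower and a median of -0.06. Ppara, the nuclear receptor that drives fatty acid oxidation and transcription of perilipins, was the highest at 0.71, with 1.58 and 1.80 FPKM in the WT livers and 2.39 and 3.34 FPKM in the KO livers. Its KO livers both lay above the WT livers (unadjusted p of 0.0592 in limma), in the order opposite to that of Cidec and Plin5. Pparg, a known activator of Cidec and Plin2 in fatty liver, was at most 0.0593 FPKM in any liver and was not tested. Mlxipl, the gene of the carbohydrate sensor ChREBP, was the lowest at -0.55, and the value was 0.035 without WT liver 2 and passed the threshold at -1.13 without WT liver 1 and at -1.03 without KO liver 2. Nr0b2, the gene of the nuclear receptor SHP, was singled out after its values were seen for the opposite split, with 3.37 and 5.73 FPKM in the WT livers, 1.27 FPKM in KO liver 1 and 11.1 FPKM in KO liver 2.

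**Figure D4:**
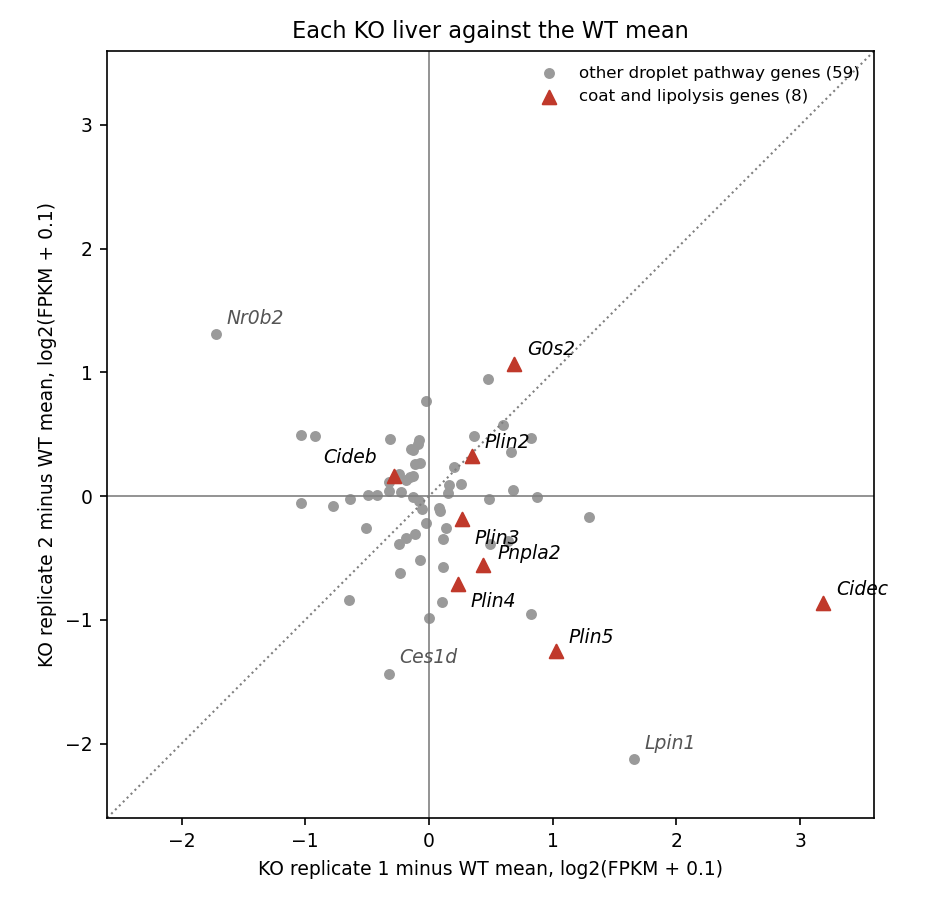
Each KO liver minus the WT mean on log2(FPKM + 0.1), with KO liver 1 on the x axis and KO liver 2 on the y axis, for the 8 genes tested (triangles) and 59 other droplet pathway genes (grey points); on the dotted line the KO livers are equal. Plin2 and G0s2 lie in the upper right, and Cidec, Plin5, Pnpla2, Plin4 and Plin3 lie in the lower right together with Lpin1.

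Markers of other cell types were examined beside the droplet genes. Of 10 adipocyte markers, 5 were at 0 in every liver (Lep, Retn, Cfd, Ucp1 and Dio2), and the defining marker Adipoq was at 0 except for 0.0099 FPKM in KO liver 1. The summed level of the 10 was 48.1 and 58.6 FPKM in the WT livers, 78.3 FPKM in KO liver 1 and 32.2 FPKM in KO liver 2. The sum was made up mainly of Car3 and Fabp4, which liver also expresses and which were higher in KO liver 1, whereas Adrb3 and Lpl were higher in KO liver 2. Adrb3, a β-adrenergic receptor, was the single gene of this list past the threshold, with 1.55 and 2.60 FPKM in the WT livers and 0.485 and 1.37 FPKM in the KO livers (log2 difference of -1.18, unadjusted p of 0.0181 in limma). The part of these genes in the result for Cidec and Plin5 was not tested. Of 11 macrophage markers, 11 had a higher mean in the KO livers and 3 passed the threshold, and the sum was 48.8 and 49.9 FPKM in the WT livers, 63.2 FPKM in KO liver 1 and 139 FPKM in KO liver 2. In FPKM as deposited that is the order of G0s2 and not that of Plin2, and its part in these results was not tested. The 9 neutrophil markers, of which 5 were tested, summed to 11.6 and 4.44 FPKM in the WT livers and 16.6 and 8.18 FPKM in the KO livers. That sum was mainly S100a9, with 8.64 and 2.99 FPKM in the WT livers and 12.3 and 6.10 FPKM in the KO livers. Of 10 sinusoidal endothelial markers, 10 had a lower log2 mean in the KO livers (median -0.25), 3 had both KO livers below both WT livers, 5 had KO livers over 2-fold apart, and 0 had an unadjusted p under 0.05 in limma. Their sum was 39.0 and 39.6 FPKM in the WT livers and 29.1 and 40.1 FPKM in the KO livers. The sums of 10 stellate cell markers ran from 96.4 to 128 FPKM and those of 7 skeletal muscle markers from 1.15 to 1.49 FPKM.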

How the data were processed

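Liver RNA-seq of 4 mice was analysed. In the methods, the authors name Trimmomatic for trimming, HISAT2 for mapping to GRCm38 and Cufflinks for FPKM, whereas the submitters' processing notes name HISAT2 2.0.4 and StringTie 2.1.4 with GRCm38 and mm10. The methods also describe stranded TruSeq libraries on a HiSeq platform and the labels a BGIseq protocol. The deposited table holds FPKM per gene and liver with 1 Ensembl transcript identifier each. A normalization between libraries is not given in the sources used here, and columns of other samples numbered 0. FPKM is relative to the total of a library, so a few abundant genes can shift all others.

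Group and replicate came from the labels. Whether the livers of a group differ in more than the animal is not stated. The limma p-values, SE and intervals use a variance drawn towards that of genes at a similar level. They therefore do not measure the spread of a single gene between these livers alone. Of the table's transcripts, 98.3% were found in GENCODE M21, and 27 symbols turned into dates were restored. Reads were estimated from the steps of FPKM on transcripts of at least 2000 bases. Of the low values, 88.4% to 89.5% lay within 0.1 of a whole read, so reads of single genes are estimates.

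The log2(FPKM + 0.1) values entered a limma 3.58.1 fit, run under R 4.3.3 with lmFit and a trended eBayes, over 12346 genes whose mean reached 0.1 FPKM, and p-values were adjusted by Benjamini-Hochberg over all of them. Because of the pseudocount, changes of low genes are understated on the log2(FPKM + 0.1) scale. Ratios and shares were compared by exact permutation, computed in Python 3.11.15. The fit was tested on simulated data with a common spread for all livers, so that test does not cover genes whose KO livers lie far apart. The genes, the pathway and marker lists, the tests and the rule for named genes were chosen with earlier results of these data known. The rule takes the 10 genes, the pathway genes past the threshold or with an unadjusted p under 0.05, the highest and lowest log2 fold change of each list, Smarca4, and the 5 genes nearest in profile to the droplet gene with the largest absolute log2 fold change. The alternatives were pseudocounts of 1 and 0.01, voom on estimated reads, a replicate block, eBayes without trend, quantile normalization, rescaling by median ratios, a filter at 1 FPKM or none, and the fit without each liver.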

Additional observations from a re-analysis of the deposited data

How the results depend on the processing

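None of the 8 droplet coat and lipolysis genes passed the threshold of the study under any alternative that kept all 4 livers, and their log2 differences kept their sign there except that of Plin3, which was -0.0056 after quantile normalization. The unadjusted p of G0s2 ran from 0.0202 to 0.0975 over these alternatives and was above 0.05 with no filter on low values and with eBayes without trend. That of Cidec ran from 0.0888 to 0.43. Among all genes, 121 passed the threshold, 18 with a pseudocount of 1, 80 with no filter, 68 with a filter at 1 FPKM, and 78 to 552 with a liver left out. A pseudocount of 1 brought Smarca4 to -0.85, short of 2-fold.

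With a liver left out, 0 to 2 of the 8 passed (Plin5 and Cidec without KO liver 2, Plin5 and G0s2 without KO liver 1, G0s2 without WT liver 2) and 0 to 5 of the other pathway genes, in which a lone liver is taken to vary like the others. The log2 difference then ran from 0.14 to 0.53 for Plin2, -0.18 to 0.27 for Plin3, -0.71 to 0.23 for Plin4, -1.26 to 1.03 for Plin5, -0.28 to 0.17 for Cideb, -0.87 to 3.19 for Cidec, -0.56 to 0.44 for Pnpla2, 0.28 to 1.49 for G0s2, -0.17 to 1.29 for Hilpda, -1.51 to -0.25 for Ces1d and -1.13 to 0.035 for Mlxipl. The causes were not tested.

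Replicate numbers were shared between the groups, but nothing in the labels pairs the livers, and the deviations of same-numbered livers correlated at 0.03. With a replicate block, 108 of all genes and 0 of the 8 droplet genes passed. The depth limits Plin1 and Cidea alone of the 10 genes, and 2 livers per group limit the rest.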
